A study of Mus musculus with 12 samples.

Results

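The 10 genes described here encode inhibin, activin and AMH ligand subunits together with their binding proteins and receptors, and they were chosen by name from the 35976 gene symbols measured. They are the ligand subunit genes *Inha*, *Inhba* and *Inhbb*, the hormone gene *Amh*, its receptor gene *Amhr2*, the binding protein genes *Fst* and *Fstl3*, and the receptor genes *Acvr2a*, *Acvr2b* and *Acvr1b*. RNA was sequenced in 12 libraries of testis from male mouse embryos at E15.5, with 3 libraries in each of F1 control, F1 *thia*, F3 control and F3 *thia*. Every group traced back to outbred Swiss (RjOrl) females that were gavaged in pregnancy from E6.5 to E15.5, with 6 mg/kg/day of the neonicotinoid thiacloprid (*thia*) or with the oil vehicle alone (0 mg/kg/day). F1 embryos were exposed in the womb. F3 embryos were not exposed themselves and descended through males of the treated or vehicle line, each time crossed with unrelated untreated females. No transgene or deletion was carried by any group. Every library was a pool of the testes of 3 embryos, so embryos within a pool cannot be told apart, and which litters entered which pool was not analysed here. In whole testis, fewer cells of a type and less RNA per cell cannot be told apart either.

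Activins are dimers of beta subunits, encoded by *Inhba* and *Inhbb*, and an alpha subunit encoded by *Inha* joins a beta subunit to make an inhibin instead. Activins bind a type II receptor (ACVR2A or ACVR2B), which recruits the type I receptor ACVR1B and leads to phosphorylation of SMAD2 and SMAD3. Inhibins compete for the type II receptors, and follistatin (*Fst*) and follistatin-like 3 (*Fstl3*) trap activins outside the cell. In the fetal testis AMH is made by Sertoli cells and acts through AMHR2 to remove the Müllerian ducts, activin A made by fetal Leydig cells promotes division of Sertoli cells, and inhibin alpha subunit is made by both cell types.

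The total count per library lay between 25081647 and 68996146, and the fewest counts of any of the 10 genes in a library were 151, for *Fst*. Counting error is part of the spread given for the less abundant genes. All 10 passed the filter on low counts. Levels are given as CPM, that is, counts scaled to library size with TMM factors over the 12 libraries. Of the F3 *thia* pools, replicate 2 stood apart. Its counts differed from the other F3 *thia* pools with a chi-square of 90.7 and 101 per degree of freedom, against 17.3 to 42.2 for every other pair of replicates. It had the lowest summed level of 11 Sertoli cell markers among the 12 libraries (745 CPM) and the highest sum of 6 blood markers (82269 CPM). The log2 fold changes of the 10 genes in F3 are therefore given with and without it. The Sertoli sum that helped to set it apart is not independent of *Amh*, which Sertoli cells express. Leaving out any other F3 pool gave no call among the 10 genes, as described below. Testis markers were present in every library, with a Sertoli sum of 745 to 1937 CPM and a sum of 7 fetal Leydig cell markers of 2562 to 8497 CPM.

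Levels of different genes were compared per kilobase of exon. In F1 control testis the mean level was 413 CPM per kb for *Amh* and 211 for *Inha*. It was 32.3 for *Inhbb*, 30.4 for *Amhr2* and 5.56 for *Inhba*, so *Inhbb* was the more abundant of the beta subunit RNAs. The 3 activin receptor genes lay close together, at 8.36 for *Acvr1b*, 7.13 for *Acvr2b* and 5.49 CPM per kb for *Acvr2a*. The binding protein genes were lowest, at 3.45 for *Fstl3* and 1.20 CPM per kb for *Fst*. In F3 control testis the first places were exchanged, with 163 CPM per kb for *Inha* and 123 for *Amh*.

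**Figure D1:**
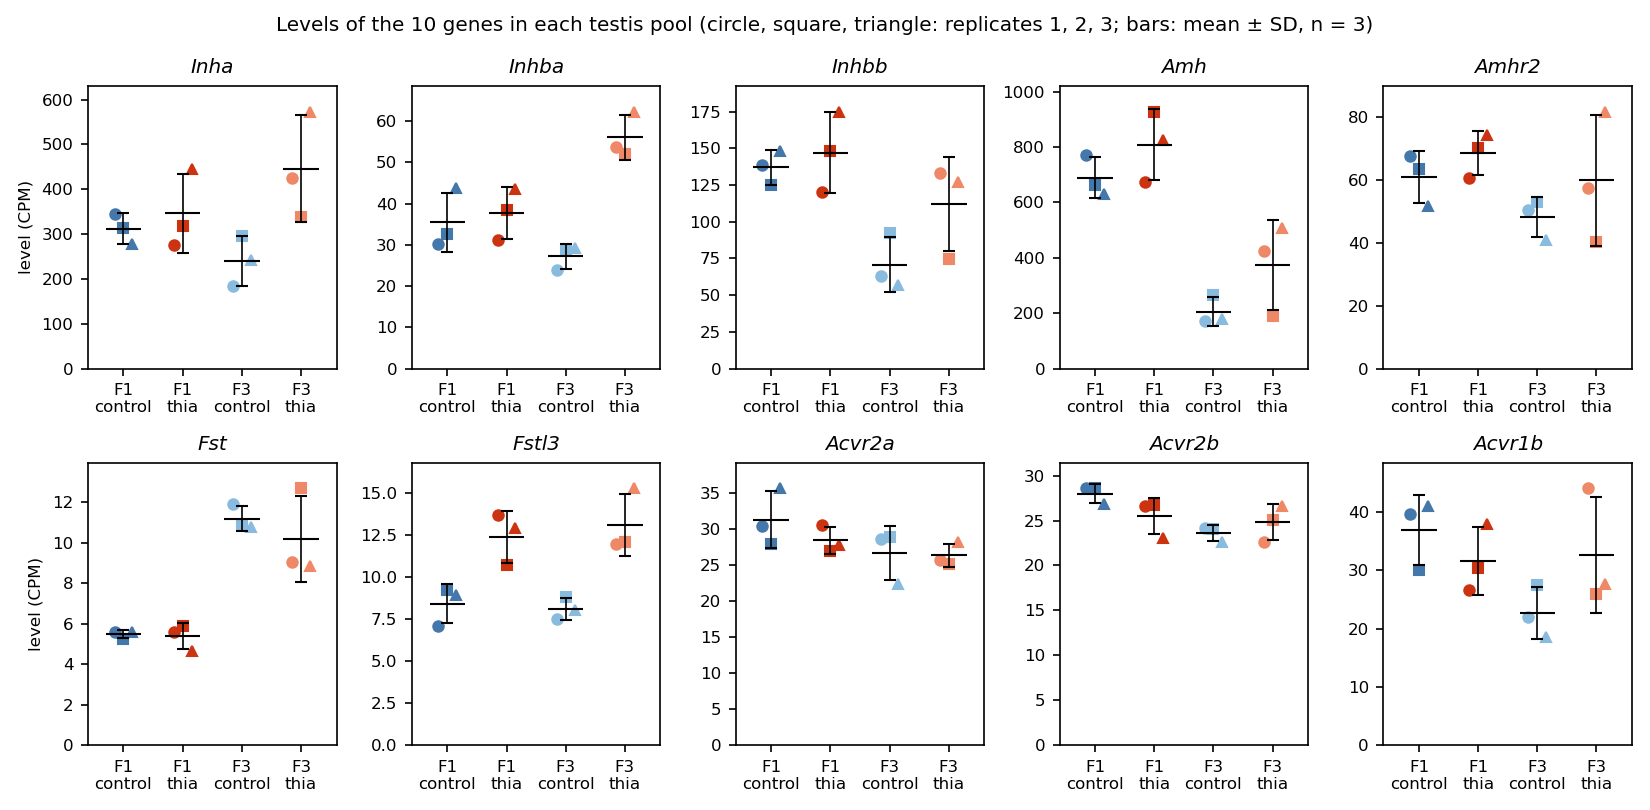
Level of each of the 10 genes in CPM (vertical axes from 0) in the 12 pools, by group, with a symbol for each replicate number and the mean ± SD of 3 pools. The F3 *thia* points lie above all F3 control points for *Inha*, *Inhba* and *Fstl3*, and F3 *thia* replicate 2 (square) is the lowest of its group for *Inha*, *Inhba*, *Inhbb*, *Amh*, *Amhr2*, *Acvr2a* and *Acvr1b*.

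The comparison of F3 *thia* with F3 control asked whether testis RNA differed in descendants that never met the compound. The ligand genes had higher mean levels in F3 *thia*, and the clearest separation was at *Inhba*, whose product builds activin A. *Inhba* measured 23.8, 28.7 and 29.2 CPM in F3 control replicates 1 to 3 and 53.8, 52.1 and 62.3 CPM in F3 *thia*. The groups did not overlap, and even the pool that stood apart held almost as much as the next. The means were 27.2 ± 2.99 and 56.1 ± 5.47 CPM (SD, n = 3 each), a log2 fold change of 1.04 (SE 0.115) with an adjusted p of 0.101 by the quasi-likelihood test of edgeR. That is just above the FDR of 0.1 set for F3. The Wald test of DESeq2 gave an adjusted p of 3.2e-11. Without F3 *thia* replicate 2 the log2 fold change of *Inhba* was 1.09, with an adjusted p of 0.0505 by edgeR.

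*Inha*, the alpha subunit gene, measured 184, 295 and 242 CPM in F3 control and 426, 337 and 573 CPM in F3 *thia*. The lowest *thia* pool, replicate 2, was above the highest control pool. The means of 240 ± 55.4 and 446 ± 119 CPM (SD, n = 3 each) gave a log2 fold change of 0.89 (SE 0.23), with an adjusted p of 0.118 by edgeR and 0.00208 by DESeq2. Without F3 *thia* replicate 2 the ratio of means for *Inha* was 2.08 in place of 1.85, and the log2 fold change was 1.06 with an adjusted p of 0.0685 by edgeR.

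*Inhbb*, which encodes the subunit of activin B, measured 63.0, 92.1 and 56.9 CPM in F3 control and 133, 74.6 and 127 CPM in F3 *thia*. Replicate 2 of F3 *thia* fell inside the control range and the other two pools were above it. The log2 fold change was 0.66 (SE 0.253), with an adjusted p of 0.198 by edgeR and 0.0507 by DESeq2. Without that pool the ratio of means for *Inhbb* was 1.84 in place of 1.58, and the log2 fold change was 0.88 with an adjusted p of 0.0719 by edgeR.

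*Amh* measured 171, 265 and 180 CPM in F3 control and 424, 191 and 508 CPM in F3 *thia*. Replicate 2 of F3 *thia* again lay within the control range, and the other pools were far above it. The means were 205 ± 51.9 and 374 ± 164 CPM (SD, n = 3 each), and the log2 fold change of 0.87 (SE 0.346) had an adjusted p of 0.211 by edgeR and 0.169 by DESeq2. Without that pool it was 1.19, with an adjusted p of 0.0626 by edgeR, at a setting that called 6.82% of all genes. With that pool kept, *Amh* passed the FDR of 0.1 only in the fit of all 12 libraries, which called 9.86% of all genes. The call for *Amh* thus depended on that library and on the fit. Its receptor gene *Amhr2* ranged from 40.9 to 52.9 CPM in F3 control and from 40.3 to 81.8 CPM in F3 *thia*, with a log2 fold change of 0.32 (SE 0.24, adjusted p of 0.488 by edgeR), and of 0.54 without that pool (adjusted p of 0.128).

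The binding protein genes gave different pictures. *Fstl3* measured 7.51, 8.82 and 8.02 CPM in F3 control and 12, 12.1 and 15.3 CPM in F3 *thia*, with no overlap. Its log2 fold change was 0.70 (SE 0.145), with an adjusted p of 0.105 by edgeR and 0.00121 by DESeq2, and it was 0.75 without F3 *thia* replicate 2 (adjusted p of 0.0726 by edgeR). *Fst* measured 11.9, 10.9 and 10.8 CPM in F3 control and 9.07, 12.7 and 8.87 CPM in F3 *thia*. Here replicate 2 of F3 *thia* was the highest of the 6 pools and the other *thia* pools were the lowest. Its log2 fold change was -0.14 (SE 0.164, adjusted p of 0.666 by edgeR), and -0.32 without that pool (adjusted p of 0.206). The sum of 6 blood markers was 45087, 82269 and 49563 CPM in F3 *thia* replicates 1 to 3, highest in the pool where *Fst* was highest, and its part in this result was not tested.

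The activin receptor genes differed among themselves. *Acvr2a* ranged from 22.3 to 28.9 CPM in F3 control and from 25.1 to 28.1 CPM in F3 *thia*, with a log2 fold change of -0.02 (SE 0.118). *Acvr2b* ranged from 22.6 to 24.2 and from 22.6 to 26.6 CPM, with a log2 fold change of 0.07 (SE 0.0933). For the type I receptor gene *Acvr1b* the range was 18.5 to 27.5 CPM in control and 26.0 to 44.1 CPM in *thia*, where replicate 1 alone was high. Its log2 fold change was 0.52 (SE 0.226, adjusted p of 0.242 by edgeR and 0.109 by DESeq2). Leaving out F3 *thia* replicate 2, the log2 fold changes were 0.02 for *Acvr2a*, 0.06 for *Acvr2b* and 0.66 for *Acvr1b*, and the adjusted p for *Acvr1b* was 0.142 by edgeR.

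At the FDR of 0.1, edgeR called 0 of the 10 genes in F3, as it called 0% of the 18539 genes tested. At an FDR of 0.15 it called 3, *Inhba*, *Fstl3* and *Inha*, beside 9.85% of all genes. At an unadjusted p under 0.05 there were 5 (*Inhba*, *Fstl3*, *Inha*, *Inhbb* and *Amh*), all higher in *thia*, where 21.1% of all genes reached that level in either direction and 11% as higher. DESeq2, the tool of the study, called 4 (*Inhba*, *Fstl3*, *Inha* and *Inhbb*) at an FDR of 0.1 and 14.9% of the genes it tested. Groups did not overlap at 3 of the 10 genes, all higher in *thia*, beside 13.4% of all genes as higher and 27.3% in either direction. Without F3 *thia* replicate 2, edgeR called 5 of the 10, and these were *Inhba*, *Amh*, *Inha*, *Inhbb* and *Fstl3*, while it called 6.82% of all genes at that setting. Leaving out any other F3 pool called 0 of the 10 and at most 0.0106% of all genes. With 1 F3 library left out, the highest adjusted p by edgeR was 0.364 for *Inhba* and *Fstl3* and 0.376 for *Inha*. It was 0.495 for *Inhbb* and 0.517 for *Amh*. Without F3 *thia* replicate 3 edgeR called 0% of all genes. The log2 fold changes then fell to 0.66 for *Inha*, 0.95 for *Inhba*, 0.55 for *Inhbb* and 0.58 for *Amh*. They also fell to 0.57 for *Fstl3* and 0.02 for *Amhr2*, while that of *Acvr1b* rose to 0.62. With all pools the median log2 fold change of the 10 genes was 0.59, against 0.00 for all genes tested. The 10 genes were chosen with earlier results of these data known, so this contrast is only a description.

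**Figure D2:**
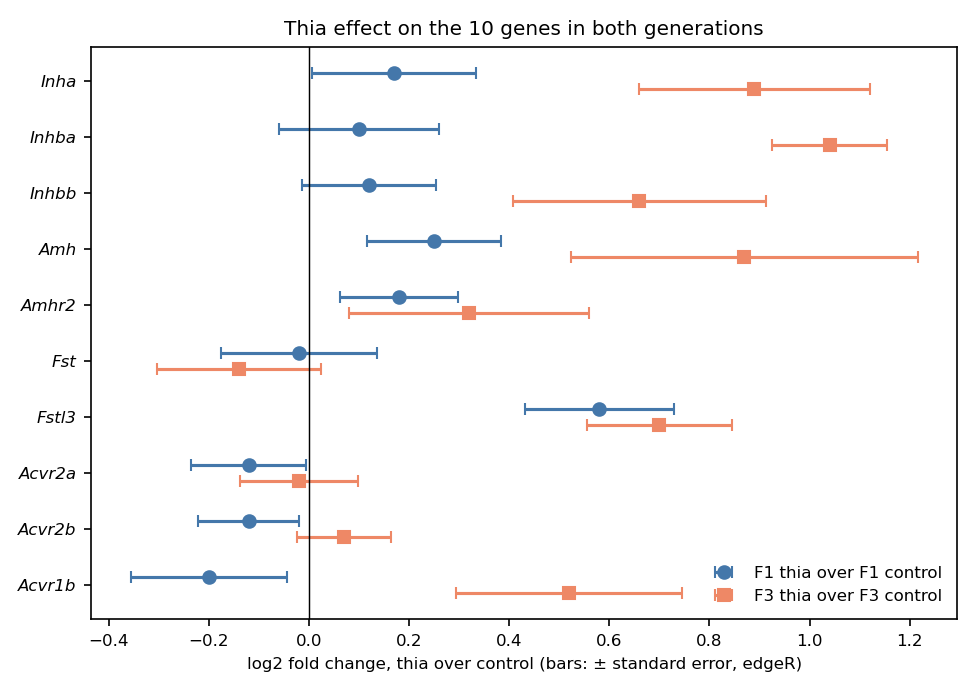
Log2 fold change of *thia* over control for each gene (horizontal axis) in F1 (circles) and F3 (squares), with bars of ± 1 standard error from edgeR (3 pools a group). F3 values reach 1.04 at *Inhba*, the F1 values of all genes other than *Fstl3* lie between -0.20 and 0.25, and *Fstl3* is at 0.58 in F1 and 0.70 in F3.

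The DNA before the start of *Inhba* and *Fstl3*, both higher in F3 *thia* in every pool, and of *Amhr2* is shown because these were the windows that held a searched motif for core promoters or gonadal factors. The windows are the 250 bases before each start, from RefSeq on GRCm38.p6, the build of mm10. Entries before the start of the gene were matched for 7 of the 10 genes, and no window before the start was examined for *Inha*, *Amh* or *Fst*. Those of *Inhba* (chr13:16011601-16011850), *Fstl3* (chr10:79777024-79777273) and *Amhr2* (chr15:102445117-102445366) lie on the plus strand, and motifs are in capitals.
*Inhba*: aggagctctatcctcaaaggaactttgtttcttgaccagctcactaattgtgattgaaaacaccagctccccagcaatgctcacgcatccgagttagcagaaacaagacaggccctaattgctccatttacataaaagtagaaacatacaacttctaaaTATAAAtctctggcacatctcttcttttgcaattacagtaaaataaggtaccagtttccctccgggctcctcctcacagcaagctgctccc
*Fstl3*: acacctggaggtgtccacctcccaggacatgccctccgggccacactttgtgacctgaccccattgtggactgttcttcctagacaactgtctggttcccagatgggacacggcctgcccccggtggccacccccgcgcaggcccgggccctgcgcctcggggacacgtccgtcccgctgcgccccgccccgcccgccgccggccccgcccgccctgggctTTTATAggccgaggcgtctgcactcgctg
*Amhr2*: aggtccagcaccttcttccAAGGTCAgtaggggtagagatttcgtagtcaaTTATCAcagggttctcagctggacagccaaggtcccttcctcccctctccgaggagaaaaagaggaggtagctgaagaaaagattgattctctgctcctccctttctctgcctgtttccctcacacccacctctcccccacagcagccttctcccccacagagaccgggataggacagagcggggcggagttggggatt
In *Inhba* the capitals mark TATAAA, the core of a TATA box, at position -91 counted from the start. In *Fstl3* they mark the same motif on the other strand (TTTATA), at -29. TATAAA was found on either strand in 12.4% of the 32817 windows of this length. In *Amhr2* they mark AAGGTCA, which the factor NR5A1 can bind, at -231 and, as TTATCA on the other strand, the motif TGATAA of the GATA factors at -199. AAGGTCA was in 4.08% and TGATAA in 7.95% of all windows. The window of *Acvr1b* held the E-box CACGTG, as did 6.02% of windows. The motifs TGACGTCA (a cyclic AMP response element, 1.55% of windows), TGACTCA (an AP-1 site, 4.46%), AGATAA (for factors of the GATA family, 9.99%) and GTCTAGAC (a Smad palindrome, 0.168%) were in none of these 7 windows. These matches describe letters in a window, and no binding was measured.

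On their own strand the genes share their loci with no other annotated gene, apart from the microRNA gene *Mir6962* within *Acvr1b*. *Inha* lies at chr1:75507077-75510366, *Inhba* at chr13:16011851-16031621, *Inhbb* at chr1:119415465-119422248 and *Amh* at chr10:80805243-80807648 of mm10. Genes on the opposite strand overlap *Inhba*, *Fst*, *Fstl3*, *Acvr2a* and *Acvr2b* (among them the protein-coding *Prss57* beside *Fstl3* and *Orc4* beside *Acvr2a*). The library kit kept strand, and the strand setting of the counting itself is not stated, so shared reads at these 5 genes are uncertain.

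The comparison of F1 *thia* with F1 control asked about embryos exposed directly. Of the 10 genes only *Fstl3*, the binding protein gene, was higher in every *thia* pool. It measured 7.10, 9.26 and 8.94 CPM in F1 control and 13.7, 10.7 and 12.9 CPM in F1 *thia*. The lowest *thia* pool, replicate 2, was above the highest control pool. The means of 8.43 ± 1.16 and 12.4 ± 1.56 CPM (SD, n = 3 each) gave a log2 fold change of 0.58 (SE 0.149, p of 0.00291), with an adjusted p of 0.446 by edgeR and 0.073 by DESeq2. The fold was therefore close to the one in F3, and the difference between them was 0.13 (SE 0.21, adjusted p of 0.81 by edgeR).

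The ligand genes overlapped between F1 groups. *Inha* measured 345, 314 and 277 CPM in F1 control and 275, 319 and 445 CPM in F1 *thia*. *Inhba* measured 30.3, 32.6 and 43.7 CPM in control and 31.1, 38.5 and 43.5 CPM in *thia*. In *thia* pools replicate 3 was the highest for both, and the other pools were within or near the control range. *Inhbb* measured 139, 125 and 148 CPM in control and 120, 148 and 175 CPM in *thia*. *Amh* measured 772, 663 and 631 CPM in control and 674, 928 and 824 CPM in *thia*, with 2 of the 3 *thia* pools above all controls. The log2 fold changes were 0.17 for *Inha* (SE 0.164), 0.10 for *Inhba* (SE 0.16), 0.12 for *Inhbb* (SE 0.134) and 0.25 for *Amh* (SE 0.133), with adjusted p-values from 0.609 to 0.837 by edgeR.

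Of the other genes in F1, *Amhr2* had a log2 fold change of 0.18 (SE 0.118) and *Fst* of -0.02 (SE 0.156). The 3 receptor genes were lower on average, at -0.12 for *Acvr2a*, -0.12 for *Acvr2b* and -0.20 for *Acvr1b*, with adjusted p-values of 0.74, 0.697 and 0.688 by edgeR. *Acvr2b* ranged from 26.8 to 28.6 CPM in control and from 23.1 to 26.7 CPM in *thia*, which did not overlap by a narrow margin. At an FDR of 0.15, edgeR called 0 of the 10 genes and 0.0105% of all 19137 tested, and DESeq2 called *Fstl3* alone beside 1.01% of all. At an unadjusted p under 0.05 *Fstl3* was the only 1 of the 10, where 8.76% of all genes reached it. Groups did not overlap at 2 of the 10, beside 15% of all genes.

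The effects in F3 and F1 were compared in a single fit of the 12 libraries. *Inhba* had the largest difference, 0.95 on the log2 scale (SE 0.217, p of 0.000772), with an adjusted p of 0.248 by edgeR and 0.0148 by DESeq2. *Inha* differed by 0.74 (SE 0.31, p of 0.0338) and *Acvr1b* by 0.74 (p of 0.0298), with an adjusted p of 0.318 by edgeR for *Inha*. Without F3 *thia* replicate 2 the difference was 1.00 for *Inhba* (adjusted p of 0.119 by edgeR), 0.90 for *Inha* (0.183) and 0.88 for *Acvr1b* (0.2), and 0 of the 10 were called. At an FDR of 0.1 edgeR called 0 of the 10 genes and 0.0051% of all, and DESeq2 called *Inhba* beside 4.74% of all. An unadjusted p under 0.05 was reached by 3 of the 10 (*Inhba*, *Inha* and *Acvr1b*) and by 14% of all genes. A larger effect in F3 than in F1 was thus not shown by edgeR for any of them.

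Control testes of the generations were set side by side in the same fit. Generation and library series cannot be told apart here, and F3 controls also enter the F3 comparison above. *Amh* was 3.36-fold higher in F1 control (689 ± 74.0 CPM) than in F3 control (205 ± 51.9 CPM; SD, n = 3 each), a log2 difference of -1.75 for F3 minus F1 (SE 0.289, adjusted p of 0.00102 by edgeR). *Inhbb* was 1.94-fold higher in F1 control, with a log2 difference of -0.96 (SE 0.223, adjusted p of 0.00659). *Fst* went the other way and was 2.04-fold higher in F3 control, at 11.2 ± 0.631 against 5.49 ± 0.204 CPM, a log2 difference of 1.03 (SE 0.156, adjusted p of 0.000659). No pool of these genes overlapped between the control groups.

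Levels were lower in F3 control for 3 more genes that passed an FDR of 0.1, *Acvr1b* (log2 difference -0.70, adjusted p of 0.0257 by edgeR), *Acvr2b* (-0.25, 0.0528) and *Inhba* (-0.38, 0.0756). *Inha* (-0.38, adjusted p of 0.207), *Amhr2* (-0.34, 0.212), *Acvr2a* (-0.23, 0.157) and *Fstl3* (-0.05, 0.811) did not pass. In all 6 of the 10 were called, 1 higher and 5 lower in F3 control, beside 42.3% of all genes. Without F3 control replicate 3 edgeR called 3 of the 10 (*Amh*, *Inhbb* and *Fst*) and 30.9% of all genes. With upper quartile scaling it called 4, since *Inhba* (-0.29, adjusted p of 0.16) and *Acvr2b* (-0.15, 0.217) did not pass, and *Fstl3* was at 0.04. Of all genes called, 47.1% were higher in F3 control with TMM and 60.8% with upper quartile scaling. The *Amh* level of F3 *thia*, 191 to 508 CPM, thus stayed below the lowest F1 control pool of 631 CPM, whereas that of *Inhba*, 52.1 to 62.3 CPM, was above the highest F1 control pool of 43.7 CPM. The sum of 6 blood markers differed between the generations, from 5179 to 15144 CPM in F1 control and from 61841 to 66343 CPM in F3 control. The Sertoli sum was 1348 to 1721 CPM in F1 control and 862 to 1166 CPM in F3 control. The part of either in the results on control testes was not tested.

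Markers of the cells that make these hormones were measured in the same F3 pools. The Leydig sum was 2562 to 4240 CPM in F3 control and 4711 to 8497 CPM in F3 *thia*, without overlap, and 4 of its 7 genes had an unadjusted p under 0.05, all higher in *thia*. The 4 were *Cyp17a1*, *Star*, *Lhcgr* and *Scarb1*, which serve androgen synthesis, its cholesterol supply or its luteinising hormone signal. All 7 had such a p when F3 *thia* replicate 2 was left out. Over all genes 21.1% had such a p with every pool (11% as higher) and 22.3% without that pool. The Sertoli sum overlapped, at 862 to 1166 CPM in control and 745 to 1414 CPM in *thia*. Of its 11 genes 1 (*Rhox8*, higher in *thia*) had an unadjusted p under 0.05 by edgeR. *Fgf9* was lower in every *thia* pool, at 12.2 to 13.8 CPM in control and 7.98 to 11.6 CPM in *thia*. *Aard*, *Cst9* and *Cldn11* also had lower means in *thia*, and the remaining Sertoli markers had higher ones. The *thia* pools other than replicate 2 had Sertoli sums of 1414 and 1329 CPM, above all controls. The germ cell sum of 10 markers was 741 to 1150 CPM in control and 510 to 1009 CPM in *thia*. Of these germ cell markers 3 had an unadjusted p under 0.05 by edgeR, all lower in *thia*. The sum of 6 endothelial markers was 157 to 178 CPM in control and 235 to 281 CPM in *thia*. Of these endothelial markers 5 had an unadjusted p under 0.05 by edgeR, all higher in *thia*. The sum of 4 adrenal cortex markers was 31.6 to 48.7 CPM in F3 control and 51.6 to 112 CPM in F3 *thia*.

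Within each library the ratio of *Inha* to the Leydig sum stayed nearly level in F3. On the log2 scale it was -3.98 to -3.80 in F3 control and -3.89 to -3.80 in F3 *thia*, a difference of means of 0.01. In F1 the same ratio was -3.74 to -3.69 in control and -3.47 to -3.39 in *thia*, without overlap. *Inha* relative to the Sertoli sum was -2.37 to -1.84 in F3 control and -1.73 to -1.14 in F3 *thia*, so here the groups parted. *Inhba* relative to the Leydig sum overlapped, at -7.21 to -6.75 in F3 control and -7.09 to -6.50 in F3 *thia*. The largest markers of the Leydig sum did not rise alike. Mean levels in F3 control and F3 *thia* were 1336 and 2797 CPM for *Cyp17a1* and 496 and 1111 CPM for *Scarb1*. They were 738 and 1041 CPM for *Cyp11a1* and 563 and 722 CPM for *Hsd3b1*. The ratios to the Leydig sum thus depend on which markers enter it.

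The Sertoli-related genes were also set against the Sertoli sum, which does not contain them. *Amh* relative to that sum was -2.48 to -2.14 on the log2 scale in F3 control and -1.96 to -1.39 in F3 *thia*, without overlap, also in replicate 2. *Inhbb* relative to it was -3.92 to -3.66 in F3 control and -3.41 to -3.32 in F3 *thia*, again without overlap. The largest markers of that sum in F3 control did not move together. Mean levels in F3 control and F3 *thia* were 378 and 590 CPM for *Clu*, 231 and 194 CPM for *Aard* and 198 and 152 CPM for *Cst9*. The ratios to this sum, that of *Inha* included, thus depend on which markers enter it, and ratios to single markers were not examined. In F1 control the ratio for *Amh* was -1.38 to -0.99, above every F3 pool. The share of Leydig or Sertoli cells in the pools was not measured, and the part of these markers in the results for *Inha*, *Inhba*, *Inhbb* and *Amh* was not tested.

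**Figure D3:**
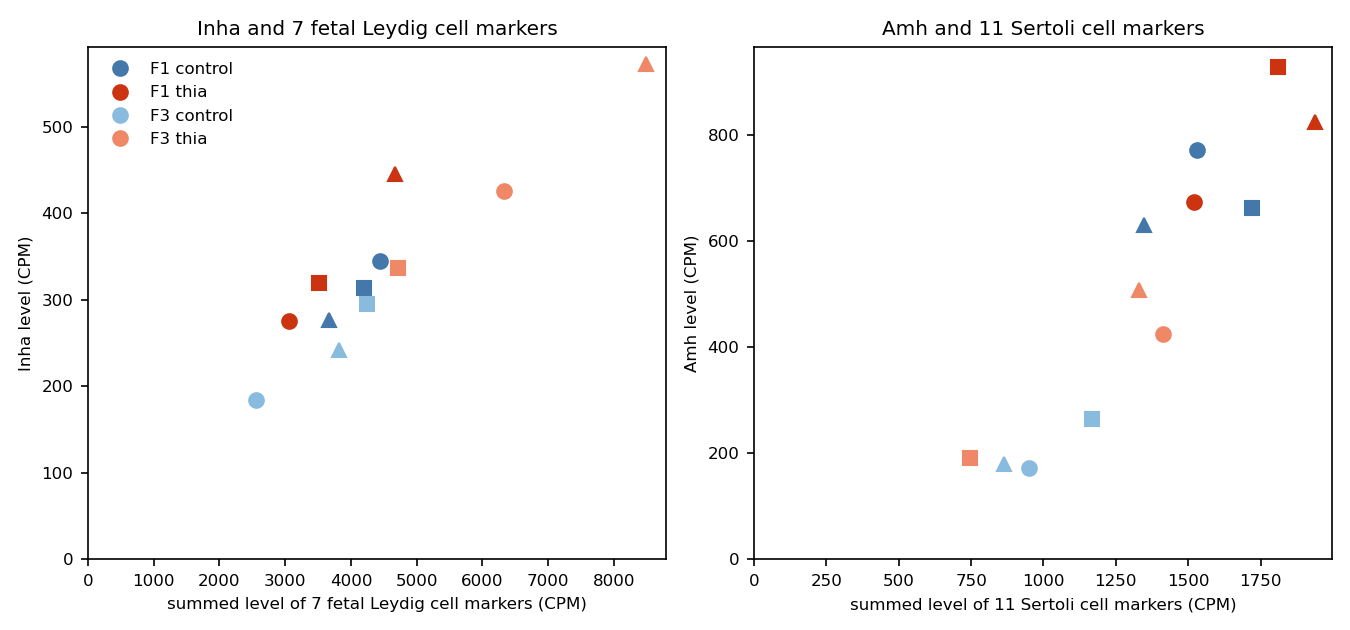
Left, *Inha* level against the summed level of 7 fetal Leydig cell markers; right, *Amh* level against the summed level of 11 Sertoli cell markers, all in CPM with axes from 0, with 1 point per library, colours for groups and symbols for replicates 1 to 3 (circle, square, triangle). *Inha* is highest (573 CPM) in the library with the highest Leydig sum, and its ratio to that sum is higher in F1 *thia* than in every other pool. In the right panel F3 *thia* replicate 2 lies with the F3 controls at 191 CPM.

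Relations among the ligands can be read as ratios that do not depend on scaling. *Inha* over *Amh* in CPM was -1.19 to -1.08 on the log2 scale in F1 control and 0.11 to 0.43 in F3 control, and in F3 *thia* it was 0.01 to 0.82. *Fst* over the sum of *Inhba* and *Inhbb*, a binding protein against activin subunits, was -5.10 to -4.91 in F1 control and -3.47 to -2.86 in F3 control. In F3 *thia* it was -4.42 to -3.32, where replicates 1 and 3 were below all controls and replicate 2 was not. *Inhba* over *Inhbb* was -1.68 to -0.96 in F3 control and -1.31 to -0.52 in F3 *thia*, which overlap.

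The genes whose levels varied most like a given gene were found by Pearson's r of log2 CPM over the 12 libraries with the group means removed, among 12194 genes. For *Inha* they were *Cyp17a1* (r = 0.978), *Ppp2r5b* (0.975) and *Cyp51* (0.974). For *Inhbb* they were *Kcnh1* (r = 0.985), *Exoc3l2* (0.973) and *Dhh* (0.968), the last a Sertoli cell ligand. *Amh* was most like *Nr4a1* (0.978), *Sema7a* (0.974) and *Abhd6* (0.969), and *Inhba* most like *Fam210a* (0.966), *Pank1* (0.949) and *Sh3bp5* (0.934). *Fst* was most like *Rmdn3* (0.935), *Bnip3l* (0.92) and *Riok3* (0.918). Among the 10 genes themselves r was 0.863 for *Inhbb* and *Amh*, 0.86 for *Amh* and *Amhr2*, 0.725 for *Inha* and *Inhbb*, and -0.768 for *Inha* and *Fst*. These values are descriptions over libraries that differ in the marker sums given above, F3 *thia* replicate 2 among them.

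Other genes of the pathway were counted from a list of 48, of which 44 passed the filter in each generation. In F3, edgeR called 0 at the FDR of 0.1 and 4 at 0.15, and 9 had an unadjusted p under 0.05, all higher in *thia*, while DESeq2 called 8, all higher. Over all genes 21.1% had such a p in either direction, 11% as higher. DESeq2 called 14.9% of all genes, and 61.7% of those were higher. The pathway list was thus near the background counted in either direction, and above it counted as higher alone. This difference was not tested. The smallest p-values were those of *Pcsk6* and *Furin*, which encode proprotein convertases. *Pcsk6* was 44.6 ± 4.87 CPM in F3 control and 92.6 ± 17.5 CPM in F3 *thia* (SD, n = 3 each), a log2 fold change of 1.05 (SE 0.15) with an adjusted p of 0.101 by edgeR and 6.94e-08 by DESeq2. *Furin* had means of 37.1 and 61.8 CPM (log2 fold change 0.74, adjusted p of 0.11 by edgeR), and *Pcsk5*, another convertase gene, of 43.7 and 61.1 CPM (0.49, adjusted p of 0.153). Groups did not overlap at any of these 3 genes. Without F3 *thia* replicate 2 the log2 fold changes were 1.18 for *Pcsk6*, 0.80 for *Furin* and 0.61 for *Pcsk5*, with adjusted p-values of 0.0505, 0.0827 and 0.081 by edgeR, and 7 of the pathway genes were called beside the 6.82% of all genes.

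*Smurf1*, a ubiquitin ligase for Smads, had means of 42.2 and 52.8 CPM (log2 fold change 0.32, adjusted p of 0.114 by edgeR), and the type II receptor gene *Bmpr2* of 81.1 and 99.4 CPM (0.29, adjusted p of 0.132). *Tgfbr3*, which encodes the inhibin coreceptor betaglycan, measured 19.4, 28.4 and 28.7 CPM in F3 control and 35.2, 33.8 and 54.4 CPM in F3 *thia*, with an unadjusted p of 0.0182 by edgeR. With F3 *thia* replicate 2 left out, the log2 fold changes were 0.36 for *Smurf1*, 0.34 for *Bmpr2* and 0.81 for *Tgfbr3*, with adjusted p-values of 0.0902, 0.0969 and 0.105 by edgeR. On the lower side none of the 5 leading genes reached an unadjusted p of 0.05. They were *Smad5* (183 and 165 CPM in control and *thia*), *Bambi* (63.0 and 56.8 CPM), *Smurf2* (83.9 and 79.1 CPM), *Wt1* (186 and 173 CPM) and *Smad9* (8.05 and 7.28 CPM). *Smad5* had an unadjusted p of 0.0341 by edgeR without that pool. Among the 14 Smads and Smad cofactors, *Smurf1* was the only 1 of these to reach that level.

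By list, 4 of 9 tested binding proteins, antagonists and convertases had an unadjusted p under 0.05 in F3. So did 2 of 7 receptors and coreceptors, 2 of 10 regulators of *Amh* and *Inha* transcription (*Nr5a1* and *Gata4*) and 0 of 4 other ligands. Over all genes tested 21.1% had such a p, 11% as higher, and the regulators were near the share in either direction. *Nr5a1*, which encodes a factor that activates *Amh*, measured 128, 169 and 161 CPM in F3 control and 219, 170 and 266 CPM in F3 *thia*, where replicate 2 was just above the highest control. Without that pool its log2 fold change was 0.67 in place of 0.52, with an adjusted p of 0.0734 by edgeR. The median log2 fold change of the pathway genes in F3 was 0.14, and that of the 10 genes was 0.59.

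**Figure D4:**
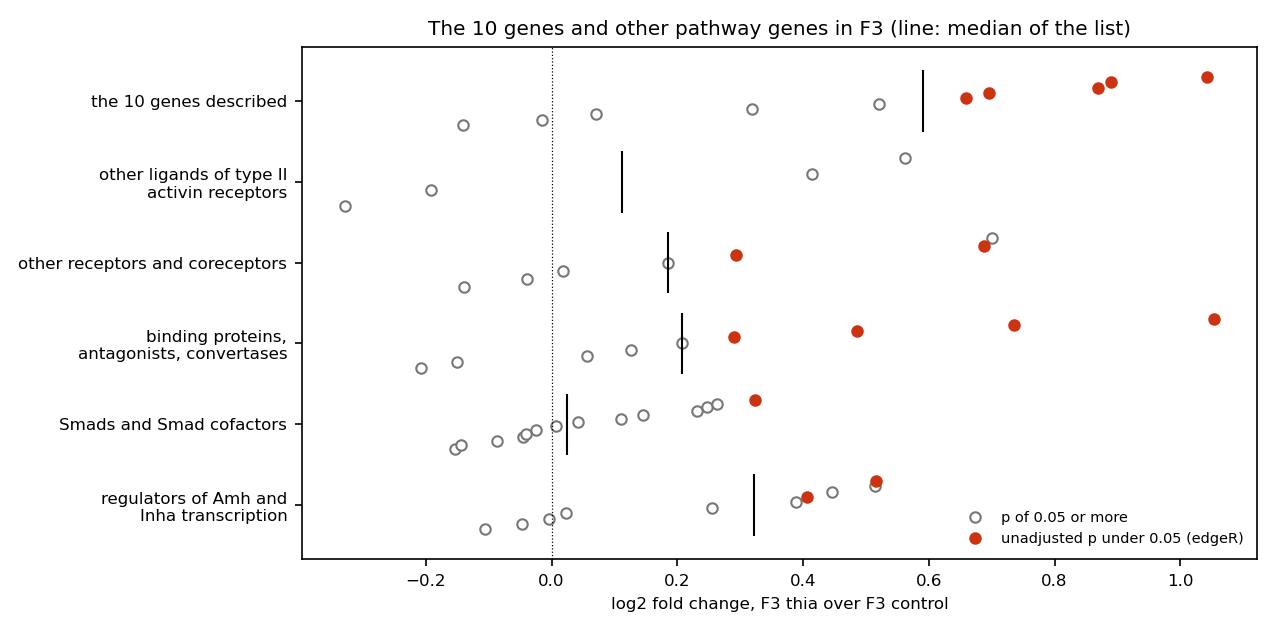
Log2 fold change of F3 *thia* over F3 control (horizontal axis) for the 10 genes and for the tested genes of 5 pathway lists, with a line at each list's median and filled points for an unadjusted p under 0.05 by edgeR. All filled points are on the positive side, up to 1.05 for *Pcsk6*, and Smads and their cofactors centre near 0.

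In F1, edgeR called 0 of the pathway genes and DESeq2 called *Wfikkn2*, beside 0.0105% and 1.01% of all genes. An unadjusted p under 0.05 by edgeR was reached by 3 as higher and 3 as lower in *thia*, and by 8.76% of all genes. *Wfikkn2*, a secreted antagonist of myostatin and GDF11, was 9.93 ± 0.78 CPM in F1 control and 14.0 ± 1.8 CPM in F1 *thia* (SD, n = 3 each), with a log2 fold change of 0.51 and an adjusted p of 0.446 by edgeR and 0.099 by DESeq2. *Tdgf1* was at 0.161 and 0.486 CPM, *Nr0b1* at 11.8 and 14.0 CPM, *Bambi* at 50.6 and 56.8 CPM and *Smad6* at 24.6 and 27.7 CPM. The genes with the smallest p on the lower side were *Nr5a2* (3.37 and 1.92 CPM), *Nodal* (1.79 and 0.856 CPM), *Dmrt1* (47.9 and 40.4 CPM), *Bmpr2* (100 and 83.3 CPM) and *Foxh1* (0.826 and 0.511 CPM). None of these passed after adjustment by edgeR. *Bmpr2* was thus lower on average in F1 *thia* and higher in F3 *thia*, and in both generations its groups did not overlap. *Wfikkn2* was higher in every *thia* pool in F3 as well, at 16.8 to 18.8 CPM in control and 19.7 to 24.0 CPM in *thia*. Over all genes 13.4% were higher in F3 *thia* without overlap. The median log2 fold change of the pathway genes in F1 was -0.03, against 0.11 for the 10 genes and 0.01 for all genes tested.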

How the data were processed

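RNA was measured by paired-end strand-specific sequencing in 12 pools of E15.5 testis. The authors mapped reads to mm10 with HISAT2 2.1.0 and counted them per gene with featureCounts. The deposited values are raw counts for 35976 symbols per library, and 0 rows named no gene. Whether pairs or single reads were counted is not given in the sources used here.

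Groups and replicate numbers came from the labels, which call the pools biological replicates, 3 per group. The counts were tested with edgeR 4.0.16, with limma 3.58.1, under R 4.3.3 (filterByExpr at a minimum count of 10, TMM, quasi-likelihood test, Benjamini-Hochberg adjustment over all genes tested). *Thia* and control were compared within each generation at the study's FDR thresholds, 0.15 for F1 and 0.1 for F3. Control testes and the difference between effects were tested in a fit of all 12 libraries at 0.1. The study used DESeq2, and DESeq2 1.42.0 was run as an alternative. Standard errors were derived from the edgeR test. CPM per kb used exon lengths of GENCODE M21. Scripts were tested on simulated data.

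The 10 genes, the pathway list and the markers were chosen with earlier results of these data known. All 10 were named in every comparison, with the 5 pathway genes of smallest p in each direction in F1 and in F3, and the 3 genes most like each of 5 members among genes with a mean of at least 5 CPM. *Tgfbr3*, *Nr5a1*, *Gata4* and single markers were named after their values were seen. Replicate numbers were not treated as pairs in the main fits. Same-numbered pools had correlations of their deviations from -0.0433 to 0.0316 in F1 and from -0.368 to 0.195 in F3. With 3 pools a group these values cannot exclude a shared litter or treatment round.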

Additional observations from a re-analysis of the deposited data

How the results depend on the processing

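With 3 pools a group, counts of calls depended on the test and on single libraries. In F3, where 0 of the 10 genes were called by edgeR, DESeq2 called 4, upper quartile scaling 2, no filter on low counts 3, all 12 libraries in a single fit 4 and an FDR of 0.15 called 3. Calls over all genes went from 0% to 14.9%, 2.8%, 1.85%, 9.86% and 9.85%. Leaving out 1 library at a time gave 0 to 5, and 5 only without F3 *thia* replicate 2, where 6.82% of all genes were called. The pathway list in F3, also 0, had 8, 1, 2, 6 and 4 under the same settings, and 0 to 7 with 1 library left out (7 without F3 *thia* replicate 2). In F1, DESeq2 and no filter each called 1 of the 10 genes, and called 1 and 2 of the pathway list, against 0, where they called 1.01% and 0.78% of all genes. For control testes the count of 6 was 4 with upper quartile scaling and 3 to 7 with 1 library left out. Over all genes the share of 42.3% was 42% and 30.9% to 43.3% at these settings. For the difference between generations DESeq2 called 1, against 0, and 4.74% of all genes, against 0.0051%. An FDR of 0.05 called 0 of the 10 genes in F1 and F3.

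Of the 10 genes, those with an unadjusted p under 0.05 numbered 1 to 2 in F1 and 3 to 8 in F3 with 1 library left out. Over all genes the shares were 5.15% to 11.7% in F1 and 11.9% to 22.3% in F3. With the replicate block there were 3 in F3, against 5, where the share of all genes was 18.5%, against 21.1%. The block left the adjusted calls among the 10 genes at 0.

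Signs turned only for small effects. Without F1 *thia* replicate 3 the F1 log2 fold changes were -0.06 for *Inha*, -0.01 for *Inhba*, -0.03 for *Inhbb* and 0.08 for *Fst*. Their ranges with 1 library left out were -0.06 to 0.31, -0.01 to 0.27, -0.03 to 0.25 and -0.08 to 0.08. *Fst* in F1 was 0.00 with upper quartile scaling. *Acvr2a* in F3 was 0.00 without a filter and -0.12 to 0.04 with 1 library left out. The F3 log2 fold changes of *Inha*, *Inhba*, *Inhbb*, *Amh* and *Fstl3* were positive under every alternative run. The causes of these changes were not tested.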
